A study of Mus musculus with 8 samples.

Results

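The genes described here are 39 interferon-stimulated and antigen presentation genes of the mouse, measured in the striatum with and without Dclk3. They were listed by name, with results of the same knockout against wild-type comparison in view. All 39 were found among the 31417 genes of the table, and 38 of them were among the 16511 genes whose counts were high enough to test. The member left out was Zbp1, a sensor of left-handed nucleic acid, with means of 0.204 CPM for wild type and 0.251 CPM for the knockout, where CPM are counts scaled to the size of the library. RNA was sequenced from the striatum of wild-type and Dclk3 knockout mice aged 12 months, in 4 libraries per genotype with 1 striatum per library. The sample titles number the replicates and name no animal, and the replicates were taken to be separate animals. The striatum receives the cortical input to the basal ganglia, and Dclk3 encodes doublecortin-like kinase 3, a kinase enriched there. The strain and sex of the animals, the deleted part of the gene and whether the deletion is restricted to a cell type are details not given in the sources used here. Markers of spiny neurons, the main neurons of the striatum, summed to between 4842 and 5777 CPM in every library.

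Interferons are cytokines that cells release when they sense viral nucleic acid. Cytosolic RNA sensors of the RIG-I-like family signal through the adaptor MAVS to the transcription factors IRF3 and IRF7, which switch on interferon genes. Secreted type I interferon then acts through its receptor and a complex that holds STAT2 and IRF9, which binds a DNA element called the interferon-stimulated response element (ISRE) and induces many genes, among them further sensors, IRF7 itself, antiviral effectors, and parts of the machinery that presents peptides on MHC class I. In uninfected brain these genes are transcribed at a low tonic level, and microglia, endothelial cells, astrocytes and neurons can all express them.

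The promoters of some members carry the element through which interferon acts, and these are shown because they are the sequence feature most closely tied to the gene group. RefSeq promoter windows (GRCm38.p6, 250 bases before to 50 after a transcript start) were available for 32 of the 39 members. Dhx58, Zbp1, Usp18, Parp9, Parp14, Ifi27 and Rtp4 were not matched. The ISRE core, written GAAA, any 2 bases, GAAA, was searched on both strands and was present in a window of 12 of the 32 members (37.5%), against 3.99% of the 27025 genes with a window. These 12 were Ifih1, Ddx58, Eif2ak2, Stat2, Isg15, Trim30a, Ifit1, Ifit3, Oas1a, Rsad2, Bst2 and B2m. A shorter element bound by STAT dimers, TTCNNNGAA, was present in 6 of the 32 members (18.8%) against 9.55% of all genes. In Bst2 both kinds of match overlapped. A match describes letters in the window and is not evidence of binding, and a window without a match says only that these letters are not in it.

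**Figure D1:**
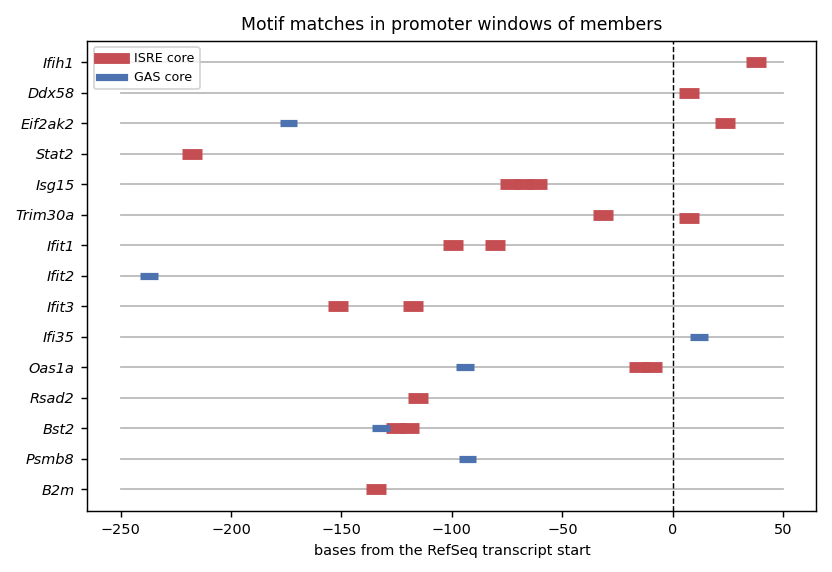
Matches of the ISRE core (red) and of the shorter STAT element (blue) in the RefSeq promoter windows of the members with at least 1 match. The horizontal axis gives bases from the transcript start (dashed line). Isg15 has 3 overlapping ISRE cores between 78 and 57 bases before the start, and the ISRE cores of Ifih1, Ddx58 and Eif2ak2 lie after the start.

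The 250 bases before the start are given below for Irf7, whose window held no ISRE core, and for the 6 members described in detail whose core lies before the start. Bases run 5′ to 3′ on the strand of the gene, and capitals mark the ISRE core, which reads TTTC, any 2 bases, TTTC where it lies on the other strand.
Irf7, chr7:141266425-141266674, minus strand: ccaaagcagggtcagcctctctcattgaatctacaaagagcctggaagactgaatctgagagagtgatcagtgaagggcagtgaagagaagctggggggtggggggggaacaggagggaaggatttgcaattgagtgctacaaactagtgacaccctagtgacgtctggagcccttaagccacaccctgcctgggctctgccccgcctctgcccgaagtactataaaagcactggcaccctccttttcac
Stat2, chr10:128270248-128270497, plus strand: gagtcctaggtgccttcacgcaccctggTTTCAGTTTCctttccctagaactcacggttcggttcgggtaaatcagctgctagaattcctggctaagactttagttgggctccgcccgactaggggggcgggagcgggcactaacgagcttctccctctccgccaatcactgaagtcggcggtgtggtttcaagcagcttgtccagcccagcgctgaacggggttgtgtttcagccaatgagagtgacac
Isg15, chr4:156200819-156201068, minus strand: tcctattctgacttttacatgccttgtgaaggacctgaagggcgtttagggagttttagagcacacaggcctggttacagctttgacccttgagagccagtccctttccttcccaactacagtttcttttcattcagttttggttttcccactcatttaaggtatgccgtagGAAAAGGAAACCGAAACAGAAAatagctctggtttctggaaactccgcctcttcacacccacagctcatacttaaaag
Ifit3, chr19:34583279-34583528, plus strand: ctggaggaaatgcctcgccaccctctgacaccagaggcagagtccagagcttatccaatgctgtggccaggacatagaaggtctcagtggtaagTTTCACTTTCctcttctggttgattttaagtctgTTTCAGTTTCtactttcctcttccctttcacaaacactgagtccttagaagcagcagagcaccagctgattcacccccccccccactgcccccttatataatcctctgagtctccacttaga
Oas1a, chr5:120907526-120907775, minus strand: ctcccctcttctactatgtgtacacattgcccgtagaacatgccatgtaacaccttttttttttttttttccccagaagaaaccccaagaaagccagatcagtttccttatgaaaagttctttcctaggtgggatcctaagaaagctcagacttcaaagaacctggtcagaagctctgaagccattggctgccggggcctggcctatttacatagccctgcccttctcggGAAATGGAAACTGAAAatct
Rsad2, chr12:26456453-26456702, minus strand: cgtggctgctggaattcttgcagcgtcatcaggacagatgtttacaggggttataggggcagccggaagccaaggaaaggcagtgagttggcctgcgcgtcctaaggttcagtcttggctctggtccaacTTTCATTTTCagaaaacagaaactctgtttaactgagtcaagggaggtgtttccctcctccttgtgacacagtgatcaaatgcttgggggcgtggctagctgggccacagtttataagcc
B2m, chr2:122147437-122147686, plus strand: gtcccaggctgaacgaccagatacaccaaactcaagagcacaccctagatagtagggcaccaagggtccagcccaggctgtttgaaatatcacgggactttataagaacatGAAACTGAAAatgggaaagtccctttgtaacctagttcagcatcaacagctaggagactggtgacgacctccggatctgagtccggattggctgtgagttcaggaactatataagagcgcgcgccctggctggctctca
Ifit3 has 2 separate cores, while those of Isg15 and Oas1a overlap each other and run together. The 12 measured members with a core had a median log2 fold change (knockout over wild type) of 0.20, and the 20 matched members without one had 0.094. The shares above 0 were 10 of 12 (83.3%) and 17 of 20 (85%), and the difference between these sets was not tested. Outside the list, the 432 other tested genes with a core had a median of 0.0045, with 51.6% above 0.

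Dclk3, checked first, was 95.2, 117, 80.9 and 86.1 CPM across replicates 1 to 4 of wild type and 27.7, 19.6, 20.9 and 22.7 CPM across those of the knockout. Its log2 fold change was -2.06 (SE 0.14), and its Benjamini-Hochberg adjusted p in the edgeR fit was 0.000773. An exact permutation test, two-sided, over 70 assignments of the libraries gave p = 0.0286, the smallest that 4 against 4 allow. Total counts per library were between 24441242 and 37145559. Wild-type replicate 4 stood apart in the markers of choroid plexus, the epithelium that makes cerebrospinal fluid. These markers summed to 2954 CPM in it, against 41.0 to 91.0 CPM in the other wild-type libraries and 52.2 to 245 CPM for the knockout. Wild-type replicate 4 and knockout replicate 4 were also the ends of the first principal component of all genes tested. Results on the members are therefore given with and without replicate 4 of each genotype. On the second component (18.9% of the variance, against 26.8% for the first) wild-type replicate 2 lay at -28.6. The other libraries lay between -6.80 and 16.0 on it. In bulk tissue, fewer cells of a type and less RNA per cell cannot be told apart.

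Most members had slightly higher levels in the knockout, and none passed the test. Of the 38 measured members, 31 had a log2 fold change above 0 (30 with DESeq2 size factors) and 7 below, against 49.5% of all genes tested above 0. Their median log2 fold change was 0.11, against -0.0011 over all genes tested. At or above 0.2 on the log2 scale lay 10 members (8.28% of all genes tested) and at or below -0.2 lay 0 (8.47% of all genes tested). After Benjamini-Hochberg adjustment at 0.05 (edgeR, over all genes tested) 0 of the 38 members were called, against 0.00606% of all genes, and 3 members, Dhx58, Irf7 and B2m, had an unadjusted p under 0.05, against 1.96% of all genes tested in this direction and 3.76% in either. In DESeq2's Wald test 0 members were called as well. Since the members were listed with this comparison in view, these counts describe the list and nothing is read from them. No exact p is given for a named member.

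**Figure D2:**
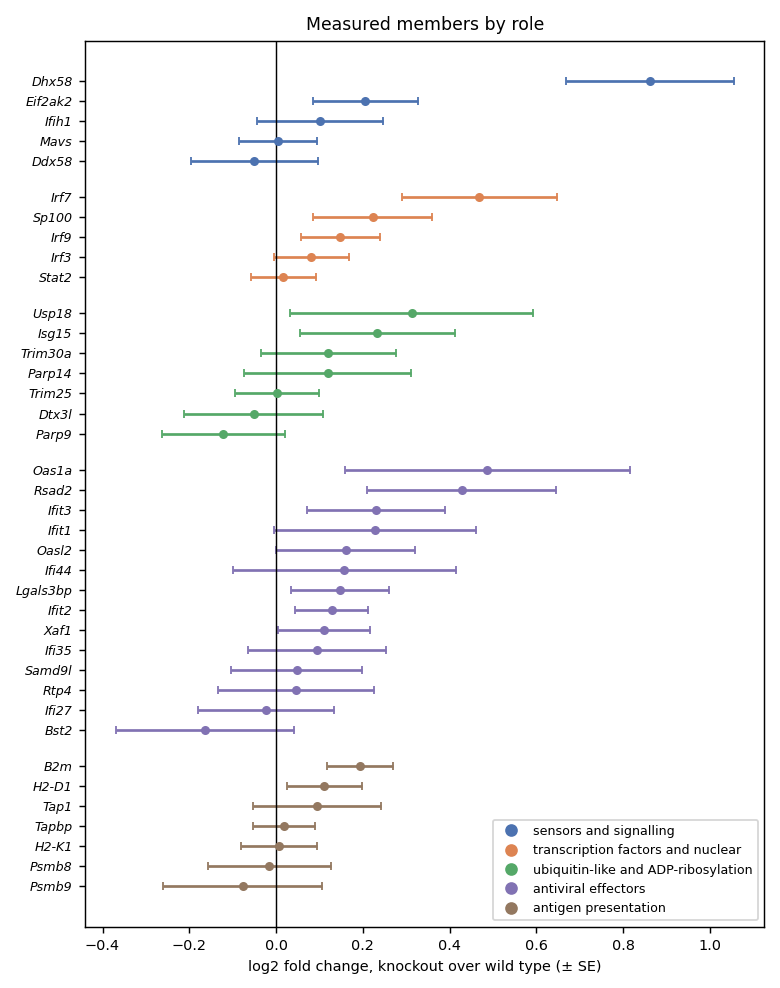
Log2 fold change (knockout over wild type, horizontal axis) of the 38 measured members, with bars of 1 standard error from the quasi-likelihood fit, grouped and coloured by role. Dhx58 lies farthest to the right at 0.86, followed by Oas1a at 0.49 and Irf7 at 0.47, and Bst2 lies lowest at -0.16.

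Per kilobase of exon, the members spanned a wide range of levels. B2m, the light chain of MHC class I, was the highest at 97.0 CPM per kilobase (mean of 8 libraries), followed by Ifi27 at 22.03, H2-D1 at 13.7, H2-K1 at 8.43 and Tapbp at 7.92 CPM per kilobase. Dhx58, at 0.404 CPM per kilobase, was the fifth lowest level, above Usp18 (0.366), Oas1a (0.240), Ifi44 (0.123) and Zbp1 (0.0646). Irf7 had 0.625 CPM per kilobase. Dhx58, Oas1a and Rsad2, with 3 of the 4 largest fold changes, were thus also among the members with the lowest levels.

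Among the RNA sensors and their signalling partners, Dhx58 had the largest difference. Dhx58 (chromosome 11, 100694884 to 100704271, minus strand, GRCm38) encodes LGP2, the RIG-I-like receptor that lacks signalling domains of its own and modulates the other sensors of its family. It was 1.09, 0.814, 0.716 and 1.12 CPM across replicates 1 to 4 of wild type and 1.68, 1.83, 1.64 and 1.68 CPM across those of the knockout. Every knockout library lay above every wild-type library, and the knockout libraries were close to each other. These values rest on 21 to 41 counts per wild-type library and 41 to 57 counts per knockout library. At such counts nothing is read from the closeness of the knockout libraries. The means were 0.935 CPM ± 0.201 and 1.71 CPM ± 0.0848 (SD, n = 4 each), or on the log2 scale a fold change of 0.86 (SE 0.19). Dhx58 was the 1 measured member of 38 whose genotypes did not overlap with the knockout higher, and 1.07% of all genes tested showed this. No member lay lower in every knockout library, against 0.86% of all genes tested. An antisense gene, Dhx58os, shares exon sequence with Dhx58 on the opposite strand, and it had 3 to 12 counts per library, at means of 0.240 CPM for wild type and 0.260 CPM for the knockout.

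Ifih1 encodes MDA5, the RIG-I-like sensor of long double-stranded RNA, and had 6.12, 5.59, 6.04 and 7.73 CPM for wild type and 6.89, 7.97, 7.21 and 5.26 CPM for knockout libraries. The genotypes overlapped, with the lowest value of all in knockout replicate 4. Its log2 fold change was 0.10 (SE 0.15), and it ranged from 0.019 without knockout replicate 2 to 0.21 without replicate 4 of either genotype and 0.32 without both. Ddx58, which encodes RIG-I itself, had a log2 fold change of -0.051 (SE 0.15). Mavs, the adaptor of both sensors, measured 10.4, 9.37, 10.7 and 11.5 CPM for wild type and 11.1, 9.87, 10.1 and 11.0 CPM for knockout libraries, with a log2 fold change of 0.0045 (SE 0.090), and the knockout range lay inside the wild-type range. Eif2ak2 encodes PKR, the kinase that halts translation on binding double-stranded RNA, and measured 7.003, 7.35, 7.40 and 9.87 CPM for wild type and 9.27, 8.44, 8.71 and 10.1 CPM for knockout libraries. Wild-type replicate 4 was high for this gene and lay within the knockout range, while the other wild-type libraries were below all knockout libraries. The log2 fold change of Eif2ak2 was 0.21 (SE 0.12). In this role 4 of 5 measured members lay above 0, their median was 0.10 (log2) and 0 passed the threshold.

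**Figure D3:**
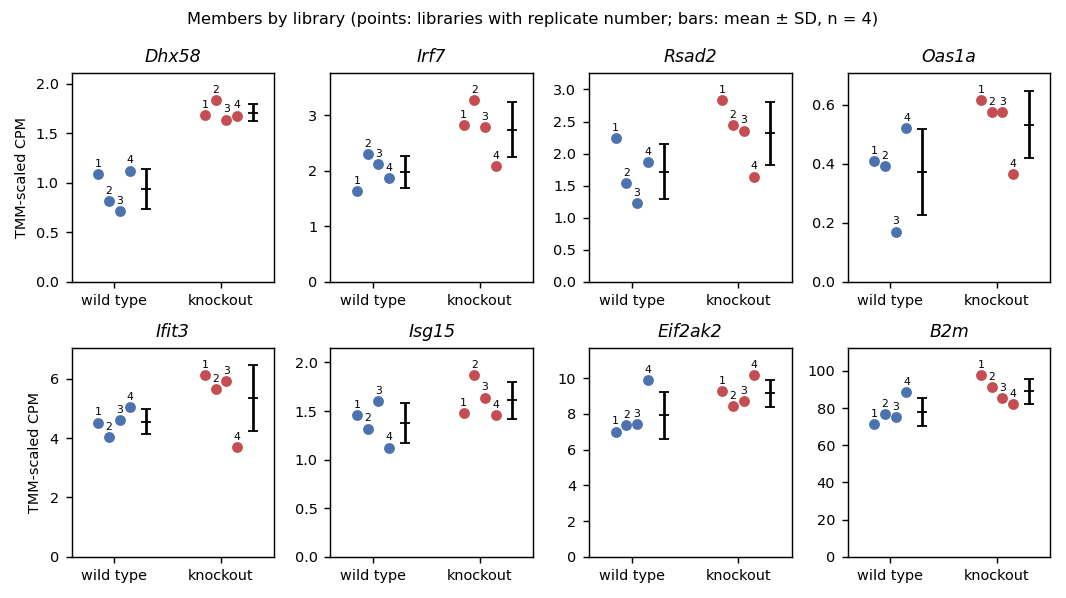
TMM-scaled CPM (vertical axes, from 0) of 8 members in each library, with replicate numbers beside the points and the mean ± SD of 4 libraries as bars. Knockout libraries (red) lie above all wild-type libraries (blue) for Dhx58, whereas for Irf7, Rsad2, Oas1a and Ifit3 knockout replicate 4 lies within or below the wild-type range.

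Of the transcription factors, Irf7 had the largest difference. Irf7 (chromosome 7, 141262706 to 141266481, minus strand, GRCm38) encodes the interferon-induced factor that amplifies type I interferon production. It was 1.63, 2.30, 2.11 and 1.86 CPM across replicates 1 to 4 of wild type and 2.83, 3.27, 2.79 and 2.08 CPM across those of the knockout. Knockout replicates 1 to 3 lay above every wild-type library, and knockout replicate 4 lay inside the wild-type range. The means were 1.98 CPM ± 0.292 and 2.74 CPM ± 0.491 (SD, n = 4 each), with a log2 fold change of 0.47 (SE 0.18). Irf7 shares exon sequence with Phrf1 on the opposite strand, which was at 58.0 and 55.2 CPM with a log2 fold change of -0.070, and since it is not stated whether the counting used strand, reads of the 2 genes may not have been told apart.

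The other transcription factors overlapped between the genotypes. Stat2, part of the complex that binds the ISRE, measured 26.4, 24.6, 26.9 and 27.8 CPM for wild type and 25.7, 26.9, 29.8 and 24.4 CPM for knockout libraries, a log2 fold change of 0.016 (SE 0.074), and the wild-type range lay inside the knockout range. Irf9, its DNA-binding partner, measured 11.5, 11.3, 10.8 and 11.1 CPM for wild type and 10.7, 11.8, 14.1 and 12.6 CPM for knockout libraries. Knockout replicates 2 to 4 lay above all wild-type libraries and knockout replicate 1 below them, with a log2 fold change of 0.15 (SE 0.091). Irf9 shares exon sequence with Rnf31 on the same strand. Sp100, a component of nuclear bodies, measured 3.20, 3.79, 4.02 and 4.30 CPM for wild type and 5.08, 4.13, 4.14 and 4.56 CPM for knockout libraries, with a log2 fold change of 0.22 (SE 0.14). Its highest value was in knockout replicate 1, and wild-type replicate 4 lay within the knockout range. Irf3, the constitutive factor that acts first after sensing, had a log2 fold change of 0.082. In all, 5 of 5 members of this role lay above 0, the median was 0.15 (log2) and 0 passed the threshold.

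Genes of the ISG15 pathway and the ADP-ribosylating enzymes all overlapped between the genotypes. Isg15, the ubiquitin-like protein that gives the pathway its name, measured 1.46, 1.32, 1.60 and 1.12 CPM for wild type and 1.48, 1.87, 1.64 and 1.46 CPM for knockout libraries. Both genotypes overlapped, with the lowest value in wild-type replicate 4 and the highest in knockout replicate 2, and the log2 fold change was 0.23 (SE 0.18). Usp18 encodes the protease that removes ISG15 and restrains the interferon receptor, and it measured 0.986, 0.786, 1.02 and 0.877 CPM for wild type and 1.11, 1.01, 1.75 and 0.621 CPM for knockout libraries. Knockout replicates 3 and 4 held the highest and the lowest value of the 8 libraries, and the log2 fold change was 0.31 (SE 0.28). Without knockout replicate 3 the log2 fold change of Usp18 was -0.011, and without knockout replicate 4 it was 0.51.

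Trim25, a ubiquitin ligase that activates RIG-I, had 10.7, 9.74, 9.14 and 10.9 CPM for wild type and 9.92, 11.5, 9.37 and 9.86 CPM for knockout libraries and a log2 fold change of 0.0014 (SE 0.096), which was -0.0010 with DESeq2 size factors. Parp9, which works in a complex with the ubiquitin ligase Dtx3l, had 3.57, 3.96, 4.02 and 4.91 CPM for wild type and 4.06, 3.66, 3.33 and 4.12 CPM for knockout libraries. It was one of the 7 members below 0, at -0.12 (SE 0.14), with overlapping ranges. The log2 fold change of Dtx3l was -0.052, that of Parp14, an ADP-ribosyltransferase, 0.12, and that of Trim30a, an interferon-induced tripartite motif protein, 0.12. Wild-type replicate 4 was the highest of the 8 libraries for Parp9, Parp14, Dtx3l and Trim30a. Of the 7 members of this role 5 lay above 0, with a median of 0.12 and 0 past the threshold.

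The antiviral effectors formed the largest role, and 12 of 14 lay above 0 with a median of 0.14 and 0 past the threshold. Oas1a makes the second messenger that activates RNase L, and it measured 0.408, 0.393, 0.171 and 0.521 CPM for wild type and 0.615, 0.575, 0.575 and 0.365 CPM for knockout libraries, a log2 fold change of 0.49 (SE 0.33) that rests on 5 to 20 counts per library. It was 0.27 without wild-type replicate 3, 0.70 without wild-type replicate 4 and 0.83 without replicate 4 of both genotypes. Rsad2 encodes viperin, an enzyme that makes a chain-terminating nucleotide, and measured 2.24, 1.54, 1.23 and 1.86 CPM for wild type and 2.83, 2.44, 2.36 and 1.64 CPM for knockout libraries, a log2 fold change of 0.43 (SE 0.22). For both genes knockout replicates 1 to 3 lay above every wild-type library and knockout replicate 4 lay inside the wild-type range. Ifit3, which belongs to a family that binds foreign RNA caps, measured 4.52, 4.04, 4.604 and 5.04 CPM for wild type and 6.11, 5.64, 5.92 and 3.69 CPM for knockout libraries, with a log2 fold change of 0.23 (SE 0.16). In Ifit3, knockout replicate 4 was the lowest of all 8 libraries and the other knockout libraries were the highest. Reads of Ifit3 and its close copy Ifit3b (3.45 and 3.95 CPM) could have been divided between the genes by the counting.

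The same placing of the libraries appeared in Ifit1, the cap-binding member of the family, which had 2.31, 1.96, 1.98 and 2.30 CPM for wild type and 2.54, 3.05, 3.08 and 1.31 CPM for knockout libraries and a log2 fold change of 0.23 (SE 0.23). Ifit2 had a log2 fold change of 0.13. Ifi27, a mitochondrial interferon-induced protein and the effector with the highest level, measured 30.3, 24.5, 34.8 and 40.8 CPM for wild type and 33.7, 32.1, 36.4 and 25.9 CPM for knockout libraries and had a log2 fold change of -0.024 (SE 0.16), with the genotypes overlapping over most of their range. The sign for Ifi27 depended on the libraries used, and with 1 library left out it ranged from -0.14 without wild-type replicate 2 to 0.10 without wild-type replicate 4. The log2 fold change was 0.16 for Oasl2, 0.16 for Ifi44, 0.15 for Lgals3bp, 0.11 for Xaf1, 0.094 for Ifi35, 0.047 for Samd9l, 0.046 for Rtp4 and -0.16 for Bst2, the membrane tether tetherin. Bst2 had the lowest fold change of the measured members, with 1.97 CPM in wild-type replicate 1 and 3.56 CPM in wild-type replicates 2 and 4.

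Antigen presentation genes were close to equal in both genotypes, with B2m as the largest difference. B2m (chromosome 2, 122147686 to 122153083, plus strand, GRCm38) measured 71.2, 76.6, 74.9 and 88.3 CPM across replicates 1 to 4 of wild type and 97.5, 91.2, 85.2 and 82.1 CPM across those of the knockout. Wild-type replicate 4 lay above knockout replicates 3 and 4, and the other wild-type libraries lay below all knockout libraries. The means were 77.8 CPM ± 7.41 and 89.0 CPM ± 6.85 (SD, n = 4 each), or on the log2 scale a fold change of 0.19 (SE 0.076). H2-D1, a classical MHC class I heavy chain, measured 30.4, 36.7, 30.6 and 38.5 CPM for wild type and 40.1, 35.0, 35.5 and 36.8 CPM for knockout libraries, with a log2 fold change of 0.11 (SE 0.086) and overlapping genotypes. H2-K1, the other classical heavy chain of this list, had a log2 fold change of 0.0070, and reads of these similar genes could have been divided between them by the counting.

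Tap1, a subunit of the peptide transporter, measured 2.82, 2.89, 3.65 and 3.34 CPM for wild type and 2.95, 3.95, 3.19 and 3.47 CPM for knockout libraries, a log2 fold change of 0.095 (SE 0.15) within overlapping ranges. Tapbp, which encodes the loading chaperone tapasin, was at 0.018 on that scale, and the immunoproteasome subunits Psmb8 and Psmb9 had -0.015 and -0.077. Psmb9 and Tap1 share exon sequence on opposite strands, and so do Parp9 and Dtx3l. In this role 5 of 7 members lay above 0, their median of 0.018 (log2) was the lowest of the 5 roles, and 0 passed the threshold. No test compared the roles with each other.

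The members did not move as a single block across the animals. The mean deviation of the 38 members from their 8-library means, on the log2 scale, was -0.10, -0.11, -0.14 and 0.086 from wild-type replicate 1 to replicate 4 and 0.11, 0.14, 0.0805 and -0.066 in knockout replicates 1 to 4. Wild-type replicate 4 lay with the knockout libraries, and knockout replicate 4 lay nearer to wild type. Wild-type replicates 1 and 3 were the lowest library for 9 members each, knockout replicates 1 and 2 were the highest for 9 members each, and wild-type replicate 4 was the highest for 7. The antiviral effectors had a mean deviation of 0.13 in wild-type replicate 4 and -0.21 in knockout replicate 4, whereas the 5 measured sensors and signalling genes had 0.13 and 0.14 in the same libraries.

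**Figure D4:**
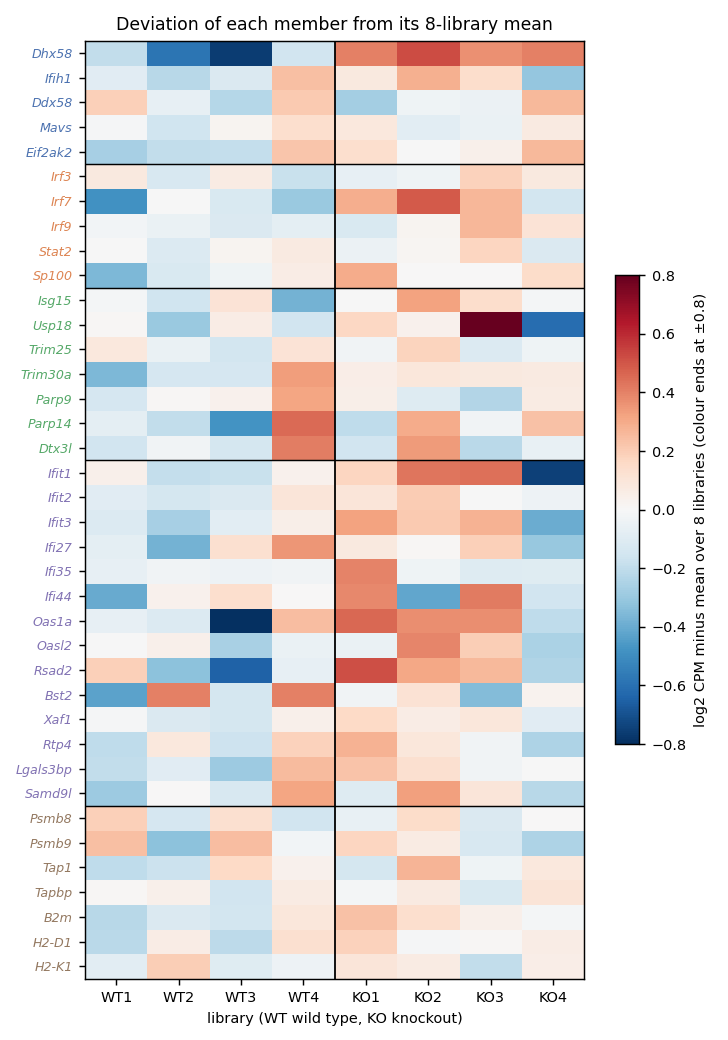
Deviation of log2 CPM from the 8-library mean (colour, red higher and blue lower) for the 38 measured members in rows, grouped by role, and the 8 libraries in columns. Dhx58 is above its mean in all knockout libraries, and in knockout replicate 4 most antiviral effectors are below theirs (mean deviation -0.21).

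The members' values changed when replicate 4 of either genotype was left out, and not in 1 direction for every role. Without wild-type replicate 4, 33 of 38 members had values above 0 and their median was 0.155, and without replicate 4 of both genotypes 32 of 38 lay above 0 with a median of 0.20, where the medians of all genes tested were 0.0040 and 0.0037. Without knockout replicate 4 alone, 29 of 38 lay above 0 and the median was 0.13. Without wild-type replicate 4, and then without both libraries, the antiviral effectors had medians of 0.18 and 0.25, the transcription factors 0.14 and 0.135, and the antigen presentation genes 0.043 and 0.011. The sensors and signalling genes had 0.21 and 0.28, and the genes of the ISG15 pathway and ADP-ribosylation 0.15 and 0.19. The members that lay above all wild-type libraries in every knockout library numbered 7 without wild-type replicate 4 (3.28% of all genes tested), namely B2m, Dhx58, Eif2ak2, Ifit2, Lgals3bp, Sp100 and Trim30a. They also numbered 7 without knockout replicate 4 (1.97% of all genes tested), namely Dhx58, Ifit1, Ifit3, Irf7, Oas1a, Rsad2 and Xaf1. Dhx58 is the 1 gene in both sets. Without both libraries the number was 14 (6.59% of all genes tested), the genes of both sets and Ifih1. Members that lay lower in every knockout library numbered 0 in each of these settings, against 3.88%, 1.84% and 6.86% of all genes tested. With fewer libraries a gap between genotypes arises more easily, as the rising shares of all genes show. The choroid plexus markers summed to 2954 CPM in wild-type replicate 4 and 102 CPM in knockout replicate 4. Their part in these counts was not tested. In each of the settings 0 members passed an adjusted p of 0.05 (edgeR quasi-likelihood), and the lowest adjusted p of any member was 0.395 without wild-type replicate 4 and 0.201 without both.

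Dhx58 and Irf7 were followed across the libraries to see whether they moved with the other interferon targets. Correlations of log2 CPM over the 8 animals are given as a description, with no p, because the members were chosen with these libraries known and the values share depth and dissection. Dhx58 had a positive Pearson correlation with 32 of 37 other members, with a median r of 0.34 (range -0.25 to 0.76), where 50.4% of all genes tested were positive and their median was 0.004. Irf7 was positive with 31 of 37, with a median r of 0.35 (range -0.59 to 0.69), against 49.6% and -0.003 for all genes tested. The genes most like Dhx58 were Rsad2 (r = 0.76), Oas1a (0.74) and Ifit2 (0.72), and the least like it were Parp9 (-0.25) and Bst2 (-0.16). The genes most like Irf7 were B2m (0.69), Isg15 (0.64) and Oasl2 (0.63), and the least like it Ddx58 (-0.59) and Parp9 (-0.37).

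The likeness was smaller within genotypes. After the genotype means were removed, the median r with the other members was 0.27 for Dhx58 (28 of 37 positive) and 0.13 for Irf7 (26 of 37 positive), and the medians over all genes tested were 0.003 and -0.005. On these deviations, pooled over the 8 libraries, the genes most like Dhx58 were Trim25 (0.84), Parp14 (0.79) and Oas1a (0.745), and the least like it Ifi44 (-0.49) and Isg15 (-0.39). For Irf7 they were Oasl2 (0.60), Ifit1 (0.59) and Rtp4 (0.59), with Ddx58 (-0.74) and Mavs (-0.57) as the least like. The rank correlation (Spearman's rho) of Ifit1 with Irf7 was 0.14. An r above 0.5 was found for 5 of 37 members with Irf7, near the 13.1% of all genes tested. With Dhx58 it was found for 10 of 37, against 13.5% of all genes tested. Between Dhx58 and Irf7 themselves r was 0.57 and Spearman's rho 0.57 over the 8 libraries, and r was -0.38 and rho -0.36 within genotypes. Without wild-type replicates 2 and 3, the libraries farthest from the median of Dhx58, r was 0.875 over 6 libraries. These were left out by the values of Dhx58 itself and are both wild type. The 0.875 still holds the difference between genotypes, so nothing is read from it. The relation of the 2 genes within genotypes was not tested.

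**Figure D5:**
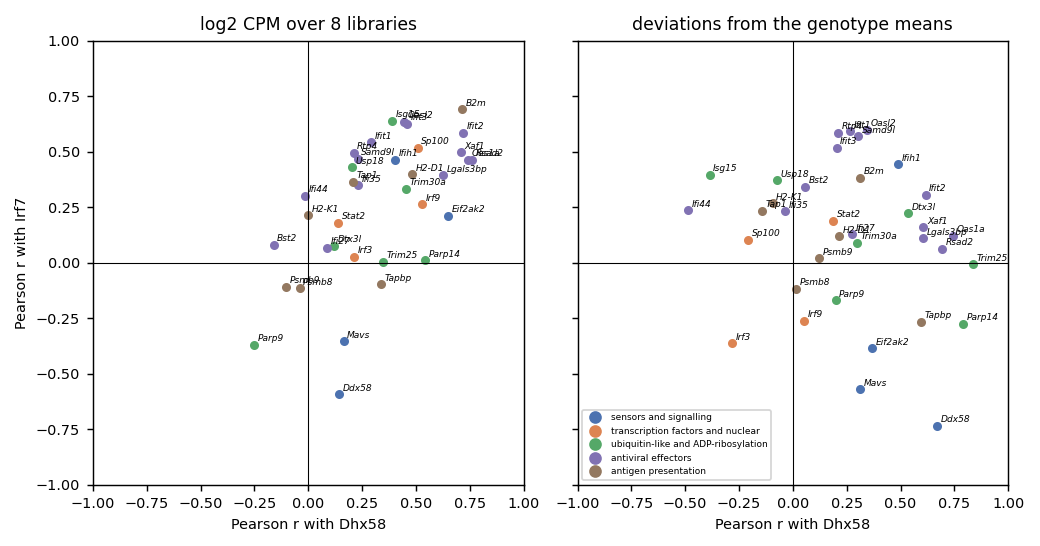
Pearson r of the other measured members with Dhx58 (horizontal axis) and with Irf7 (vertical axis), from log2 CPM over 8 libraries (left) and from deviations from the genotype means (right), coloured by role. Ddx58 has an r of 0.67 with Dhx58 and -0.74 with Irf7 in the right panel.

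Over all 703 pairs of measured members the median r was 0.22, and within genotypes it was 0.18 with 65.4% of pairs positive. The mean r of these pairs within genotypes was 0.153, where the mean r over all pairs of genes tested was 0.0002. The share of positive pairs among all genes was not computed. Within genotypes, Ifit2 (mean r to the other members 0.38), Ifih1 (0.36) and B2m (0.35) were the most like the rest, Dhx58 was at 0.24 and Irf7 at 0.10, and Irf3 was the least like the rest at -0.30. Some members are neighbours on a chromosome. Chromosome 17 holds 7 of the 39, all but Eif2ak2 in the region of the MHC. Ifit3 and Ifit1, 52.1 kb apart on chromosome 19, had an r of 0.91 within genotypes, and Parp14 and Dtx3l, both on chromosome 16, had 0.82. Psmb9 and Tap1, which overlap on chromosome 17, had an r of 0.135, and Tap1 and Psmb8 0.34.

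Other genes of the interferon and antigen presentation pathways, listed from general knowledge of the pathway with earlier results of these data known, had a median close to 0. Of 127 such genes 122 were in the table and 109 were tested, 59 above 0 and 50 below, with a median log2 fold change of 0.013. After the same adjustment in edgeR 0 were called, and 4 had an unadjusted p under 0.05, 3 higher and 1 lower. Of all genes tested 0.00606% were called and 3.76% had an unadjusted p under 0.05, with 1.96% in the higher direction. Other interferon-stimulated genes had 29 of 44 above 0 and a median of 0.070. Within that list the smallest p belonged to Ifi27l2a, a small mitochondrial protein (0.681 and 1.11 CPM, log2 fold change 0.73 (SE 0.32), unadjusted p = 0.0385 in the quasi-likelihood fit), Ddx60, a helicase that assists RNA sensing (1.13 and 1.48 CPM, 0.39 (SE 0.17)), and Oas2, a paralog of Oas1a (0.704 and 1.05 CPM, 0.59 (SE 0.31)). Mx1, Oasl1 and the chemokine gene Cxcl10, which respond strongly to interferon, were below the level tested, at 0.292, 0.266 and 0.303 CPM for wild type and 0.222, 0.221 and 0.258 CPM for the knockout. Also below that level, Ifi204 (0.239 and 0.313 CPM), Ifi207 (0.202 and 0.277 CPM) and Oas1g (0.0277 and 0.0510 CPM) had higher means for the knockout. Oas3, Cxcl9 and Ccl5, likewise untested, had lower means for the knockout.

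Of 13 listed interferon and receptor genes, 8 were in the table and 6 were tested, all of them receptor genes, with 0 past the threshold. Ifna2, Ifna4, Ifnk, Ifnl2 and Ifnl3 were not found in the table by symbol. No interferon gene could therefore be compared between the genotypes. Ifnb1 and Ifng had 0 counts in every library, which allows up to 3 counts per library, or 0.0808 to 0.123 CPM. The receptor subunit genes Ifngr1, Ifngr2 and Ifnar2 had log2 fold changes of 0.14 (SE 0.077), -0.14 (SE 0.075) and 0.046 (SE 0.091), and Ifnar1 -0.020. In JAK-STAT signalling, 6 of 11 tested genes lay above 0, with the feedback inhibitor Socs3 at -0.33 (SE 0.16) and the phosphatase gene Ptpn6 at 0.16 (SE 0.11). Of the other nucleic acid sensing genes 6 of 14 lay above 0, and those with the smallest p were the adaptor Traf3 (-0.070) and the endosomal receptors Tlr9 (-0.18) and Tlr3 (0.086). Among other interferon regulatory factors and their partners 2 of 8 lay above 0, with Irf2bp1 at -0.21 and Irf5 at -0.11.

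Further MHC class I genes had 10 of 16 above 0 and a median of 0.022. H2-Q7, a non-classical class I gene, was at 0.724 and 0.452 CPM with a log2 fold change of -0.70 (SE 0.28), H2-M3 had 0.28 (SE 0.17), and Nlrc5, the activator of class I genes, -0.35 (SE 0.22). MHC class II genes had 3 of 10 above 0 and a median of -0.086. Ctss, a lysosomal protease that trims the class II chaperone, had a log2 fold change of 0.19 (SE 0.075), Rfx5, a factor of class II promoters, 0.12 (SE 0.065), and Cd74, that chaperone, -0.39 (SE 0.26). The class II chains H2-Aa, H2-Ab1 and H2-Eb1, named after their values were seen, had log2 fold changes of -0.30, -0.61 and -0.54.

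Markers of cell types that can carry interferon-stimulated transcripts were compared in the same libraries. The 11 microglia markers, all tested, had 11 of 11 above 0 and a median of 0.084 (log2), and they summed to 658 to 767 CPM for wild type and 701 to 846 CPM for the knockout. The 10 endothelial markers had 8 of 10 above 0 and a median of 0.23, at 246 to 345 CPM and 308 to 405 CPM, and the 8 astrocyte markers had 7 of 8 above 0 and a median of 0.15, at 6229 to 6800 CPM and 6906 to 7324 CPM. The 8 oligodendrocyte markers had 8 of 8 above 0 and a median of 0.21. Of these 4 lists 0 genes passed the threshold. Not every list lay higher: perivascular macrophage markers had 3 of 5 above 0 and a median of 0.038. Leptomeningeal and fibroblast markers had 2 of 6 above 0 (median -0.22), and ependymal markers 0 of 6 (median -0.25). The endothelial sum was highest in knockout replicate 4, where the antiviral effectors had a mean deviation of -0.21, and the astrocyte sums did not overlap between genotypes. Their part in the members' differences was not tested.

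Markers of blood-borne immune cells differed widely in level. The defining T cell genes Cd3e, Cd3d and Cd3g had means of 0.0616, 0.0379 and 0.0653 CPM for wild type and 0.0375, 0.0388 and 0.0376 CPM for the knockout, and the summed B cell markers were between 0.548 and 1.23 CPM in all libraries. The 10 T and NK cell markers together summed to 43.9 to 63.8 CPM for wild type and 54.5 to 66.9 CPM for the knockout, most of it Cd4, at 50.9 and 54.5 CPM. The T cell receptor constant genes of this list were above the level tested, Trbc2 at 4.58 and 4.82 CPM (59 to 247 counts per library) and Trac at 0.515 and 0.461 CPM. The neutrophil markers summed to 0.0548 to 0.477 CPM for wild type and 0.180 to 1.24 CPM for the knockout. The 5 blood markers had 5 of 5 above 0 and a median of 0.48, at 56.1 to 93.2 CPM for wild type and 88.9 to 156 CPM for the knockout, and were highest in knockout replicates 1 and 4. Markers of thalamic and other subcortical neurons, which lie outside the striatum, summed to 595 CPM in knockout replicate 4 and 231 to 401 CPM in the other libraries, and their part in the low effector values of that library was not tested.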

How the data were processed

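The submitters deposited 1 table of raw read counts, with Ensembl genes in rows and the 8 libraries in columns, per the file headers. Poly(A) RNA from 1000 ng of total RNA went into stranded dUTP libraries with 12 PCR cycles, per the labels' protocols. The submitters' processing notes name bcl2fastq 2.17.1.14 and the build mm10. Aligner, counter, annotation and strand setting were not given in the sources used here.

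Symbols, positions and exon lengths came from GENCODE for GRCm38, the assembly that mm10 names. Of the identifiers 31292 matched and 125 did not, and these held 0.0436% of the counts. Genes were kept by filterByExpr (minimum count 10) in edgeR 4.0.16 under R 4.3.3, scaled by TMM and fitted by robust quasi-likelihood on genotype alone. The Benjamini-Hochberg adjustment of the two-sided p-values covered all genes tested (threshold 0.05). Log2 CPM used a prior count of 2. Standard errors came from the quasi-likelihood statistic. The fit was tested on simulated data. Same-genotype libraries differed by 7.12 to 32.7 chi-square per degree of freedom, so none was a copy.

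The members and all gene lists were chosen with earlier results of these data known. Named in full are Dhx58, Irf7, any measured member whose genotypes do not overlap and, in each role, the member with the highest mean CPM and the 3 with the largest fold change. In each other pathway list the 3 genes with the smallest p are named, except where one is not reported here, and genes named beyond this were chosen after their values were seen. Alternatives were DESeq2 1.42.0 size factors or its Wald test, upper-quartile scaling, other filters, limma-voom (limma 3.58.1), the replicate number as a block and leaving out libraries. Lists that name markers were not tested as sets.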

Additional observations from a re-analysis of the deposited data

Results flagged for a closer look

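Within each genotype, the most extreme library was compared with the other 3 by the gap to its nearest neighbour over the range of the 4 (Dixon's test at its critical value for 4 samples). Of 100 such groups 9 exceeded it, and chance gives about 1 in 20. Among the members, Eif2ak2 was 9.87 CPM in wild-type replicate 4 against 7.003 to 7.40 CPM in the other wild-type libraries. Ifi35 was 3.12 CPM in knockout replicate 1 against 2.19 to 2.30 CPM in the other knockout libraries. Oas1a was 0.365 CPM in knockout replicate 4 against 0.575 to 0.615 CPM. H2-K1 was 28.3 CPM in wild-type replicate 2 against 23.1 to 23.98 CPM, and 21.5 CPM in knockout replicate 3 against 25.7 to 26.4 CPM. The mean deviation of all measured members was 0.0855 in wild-type replicate 4 and -0.14 to -0.10 in the other wild-type libraries. Among the markers, the choroid plexus sum was 2954 CPM in wild-type replicate 4 against 41.0 to 91.0 CPM. The spiny neuron sum was 5777 CPM in wild-type replicate 1 against 4869 to 5017 CPM, and the astrocyte sum was 7324 CPM in knockout replicate 1 against 6906 to 6970 CPM.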

How the results depend on the processing

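Under every setting run, 0 members passed an adjusted p of 0.05 (edgeR, limma-voom or DESeq2), and Dhx58 and Irf7 kept log2 fold changes above 0. Members above 0 numbered 27 to 33, and leaving out 1 library at a time their median log2 fold change was 0.084 to 0.155, and it was 0.20 without replicate 4 of both genotypes. Without wild-type replicate 2 the members above 0 numbered 28, with a median of 0.091. With no filter on low counts Dclk3 was -2.07 on the log2 scale with an adjusted p of 0.0647 in edgeR, and the 1 gene called was Malat1. Genes called numbered 3 in DESeq2's Wald test, 1 to 2 when 1 library was left out (2 without wild-type replicate 1) and 3 without replicate 4 of both genotypes. The median r of Dhx58 with the other members was 0.237 (without knockout replicate 2) to 0.437 (without knockout replicate 4) when 1 library was left out and 0.534 without replicate 4 of both genotypes. That of Irf7 was 0.128 within genotypes, 0.231 without wild-type replicate 1, 0.449 without wild-type replicate 4 and 0.51 without both. The number of members whose libraries did not overlap was 7, 7 and 14 without wild-type replicate 4, knockout replicate 4 or both, settings chosen after seeing the data. In the same settings 3.28%, 1.97% and 6.59% of all genes tested lay higher in every knockout library. The cause of these shifts was not tested. With the replicate number as a block, 31 members lay above 0, the median was 0.1147, and 1 gene was called. Same-numbered libraries correlated at 0.037, 0.021, 0.053 and -0.276, so the numbers were not taken as pairs. With 21 to 57 counts per library for Dhx58 and 5 to 20 for Oas1a, depth limits the values of the members with the lowest levels.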
